A study of Mus musculus with 24 samples.

Results

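The MHC class II presentation genes were 8 genes measured by RNA-sequencing of blood monocytes: H2-Aa, H2-Ab1, H2-Eb1, Cd74, Ciita, H2-DMa, H2-DMb1 and H2-DMb2. They were taken as the rows of the deposited table that carry exactly these gene names, which makes 8 of the 53715 genes listed. All 8 passed the filter on low values, a normalized count of 50 or more in any 1 library, and were among the 11230 genes tested. The libraries came from monocytes sorted from peripheral blood of C57BL/6 mice aged 8 to 10 weeks, on day 5 of a model of skin and systemic inflammation. Treatment was the daily application, over 4 to 5 days, of a Sham crème or of 50 mg of Aldara, which contains 5% of the TLR7 agonist imiquimod (IMQ). In N2ΔMy mice, Cre expressed from the Lyz2 locus deletes floxed Notch2 in myeloid cells, and wt mice were littermate controls. There were 6 groups of 4 libraries. For wt and for N2ΔMy mice alike, they were Ly6Chi cells after Sham, Ly6Chi cells after IMQ and Ly6Clo cells after IMQ. Ly6Clo cells of Sham-treated mice were not analysed here, so the subsets were compared only after IMQ.

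MHC class II molecules present peptides from endosomes to CD4+ T cells. An alpha and a beta chain are assembled on the invariant chain, which fills the groove and guides the complex to endosomes, where DM molecules exchange the remaining invariant chain fragment for peptide. The genes are switched on together by CIITA, which does not bind DNA itself but docks on factors bound to the X and Y boxes of their promoters. H2-Aa and H2-Ab1 encode the chains of I-A, H2-Eb1 the beta chain of I-E, Cd74 the invariant chain, Ciita the transactivator, and H2-DMa, H2-DMb1 and H2-DMb2 the chains of DM. C57BL/6 mice make no I-E alpha chain, and the pseudogene row H2-Ea-ps was at 0 in all 24 libraries.

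The cells had been gated for the absence of the protein that the I-A and I-E genes encode. Ly6Chi cells were sorted as CD115+ and negative for lineage markers, CD43 and surface MHC-II, and Ly6Clo cells as CD115+ and negative for lineage markers and surface MHC-II. Both gates also required GFP, which in these mice reports Cx3cr1. The values are therefore transcript levels in cells without stainable surface class II. In bulk libraries, fewer cells with a transcript and less of it in each cell cannot be told apart. Lyz2-driven Cre is also active in neutrophils and macrophages, so the deletion was not limited to the sorted cells.

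Letters of the X and Y boxes were searched in the promoters for which a sequence was at hand. The windows are those of RefSeq on GRCm38.p6, from 250 bases before to 50 bases after each annotated start. On both strands, they were searched for CTNGNAAC, letters from the core of the X box, and for TGATTGG, letters from the Y box that read CCAAT on the opposite strand. Both sets of letters were chosen with these promoters in view. The 4 stretches are shown because they set the classical genes H2-Aa and H2-Eb1 beside the DM genes. Capitals mark the matched letters, X box first, and each stretch is written on the gene's own strand.
H2-Aa (chr17:34287855-34287919, minus strand): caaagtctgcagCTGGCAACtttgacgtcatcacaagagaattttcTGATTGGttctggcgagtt
H2-Eb1 (chr17:34305761-34305824, plus strand): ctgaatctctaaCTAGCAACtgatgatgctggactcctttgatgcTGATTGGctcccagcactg
H2-DMb1 (chr17:34153082-34153146, plus strand): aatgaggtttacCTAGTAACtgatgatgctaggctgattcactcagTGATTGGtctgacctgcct
H2-DMb2 (chr17:34145112-34145175, plus strand): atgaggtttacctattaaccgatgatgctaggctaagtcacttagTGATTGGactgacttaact

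In H2-Aa and H2-DMb1 the X box letters were followed by the Y box letters after 26 bases, and in H2-Eb1 after 25 bases. The Y box letters began 50 bases before the annotated start in H2-Aa, 61 in H2-Eb1, 63 in H2-DMb1 and 92 in H2-DMb2. The window of H2-DMb2 held the Y box letters without the X box letters. Of 32851 windows searched, 13.2% held the X box letters and 7.82% the Y box letters. The letters were chosen with these promoters in view, so such shares are no test of enrichment. Both sets of letters lay on 1 strand within 40 bases in 31 windows, or 0.0944%, and those of H2-Aa, H2-Eb1, H2-DMb1 and H2-Ob were among them. The windows of the other class II genes H2-Oa, which lacked the X box letters, and H2-Eb2, which held both but not in this arrangement, were not. The start of H2-DMb2 in RefSeq lay 1942 bases from its start in the deposited table. The windows of H2-DMa lay 9664 and 12350 bases from the start in the table and held neither set of letters. H2-Ab1, Cd74 and Ciita were not searched.

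Of the 8 genes, 7 differed over the 6 groups by limma's F-test (adjusted p up to 0.01), which 43% of all tested genes also passed. H2-DMb2 did not pass (adjusted p = 0.114 by limma). Cd74 had the highest level per length. In wt Ly6Chi cells after Sham treatment, its mean normalized count per kilobase of transcript was 5699 ± 2047 (SD, n = 4), against 1139 ± 343.0 for H2-Ab1, 603.8 ± 192.5 for H2-Aa and 417.7 ± 164.3 for H2-Eb1. Among the DM genes, the level per kilobase there was 895.5 ± 180.1 for H2-DMa and 414.0 ± 111.2 for H2-DMb1, and only 42 ± 6.14 for H2-DMb2. Ciita, a regulator with a long transcript, had 118.0 ± 33.1 per kilobase. H2-DMb1 and H2-DMb2 lie side by side on chromosome 17 and are close copies, so reads of the abundant gene may have been counted on the other, and the low values of H2-DMb2 are uncertain.

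**Figure D1:**
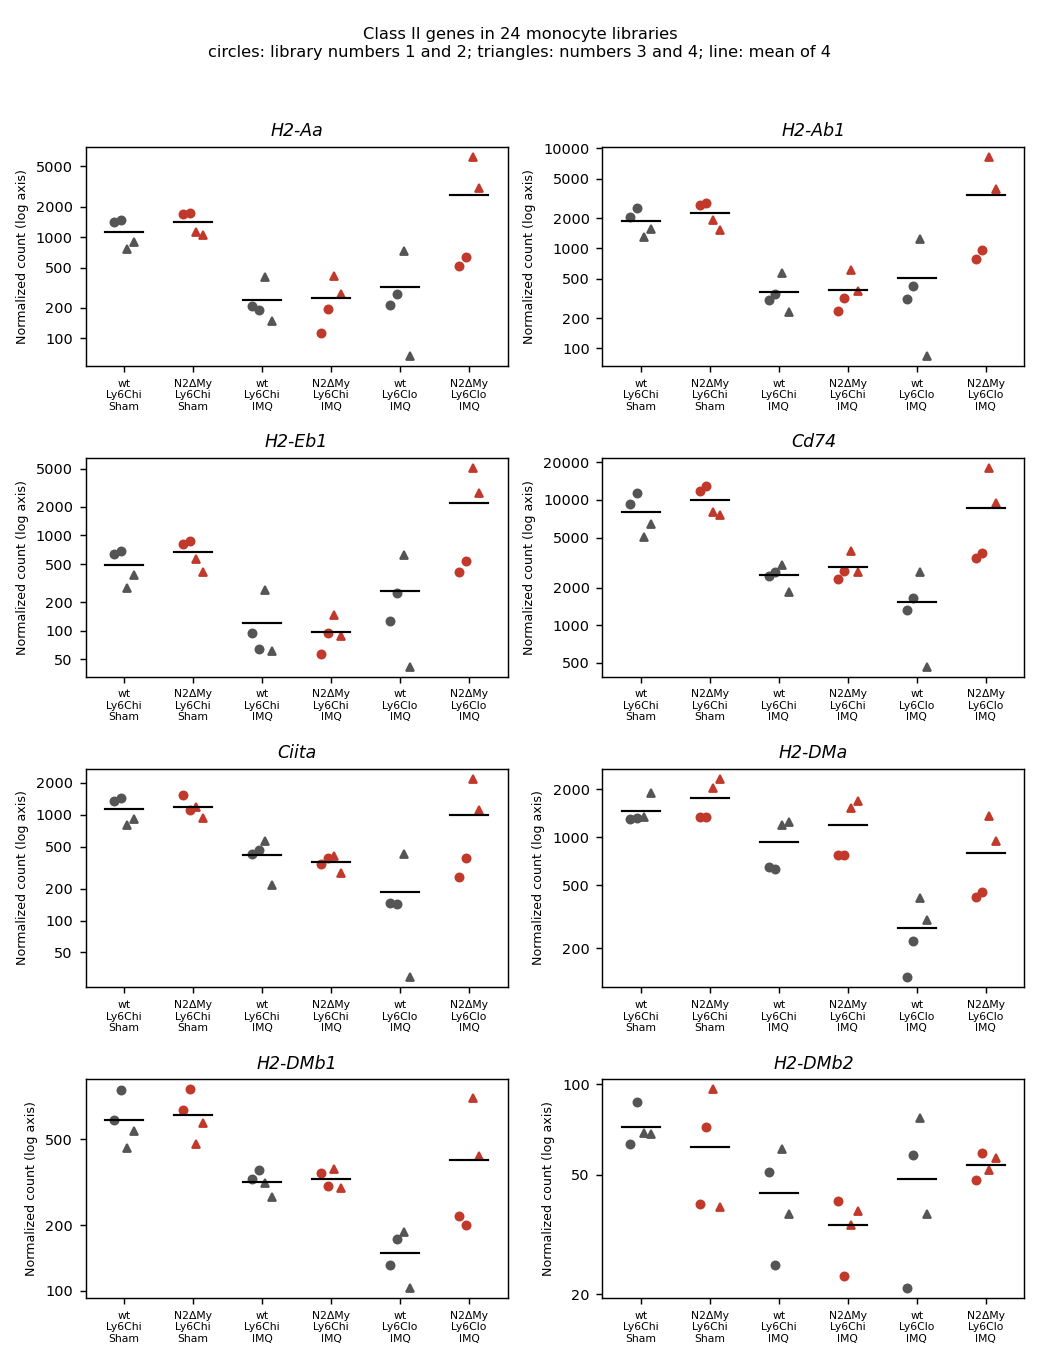
Normalized counts of the 8 class II genes (log axis) in the 24 libraries, by group. Grey is wt and red N2ΔMy, circles are library numbers 1 and 2, triangles numbers 3 and 4, and lines the means of 4. The classical genes and Cd74 are low in Ly6Chi cells after IMQ and span a wide range in N2ΔMy Ly6Clo cells, where the triangles lie above the circles for every gene but H2-DMb2.

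The groups could be ordered by their mean level. H2-Aa and H2-Ab1 shared 1 order: N2ΔMy Ly6Clo cells after IMQ stood first, then N2ΔMy and wt Ly6Chi cells after Sham treatment, then the other 3 IMQ groups. In that order, only the step from wt Ly6Chi Sham cells to wt Ly6Clo IMQ cells was between groups whose libraries did not overlap. For Cd74 the same gap separated the wt Ly6Chi Sham libraries from the N2ΔMy Ly6Chi IMQ libraries, with N2ΔMy Ly6Chi Sham cells first. H2-DMa had another order, with all 4 Ly6Chi groups above both Ly6Clo groups, and its only gap between neighbours set wt Ly6Clo cells apart at the bottom. H2-DMb1 had its gap in the same place. For H2-Eb1, Ciita and H2-DMb2, every pair of neighbours in the order overlapped.

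The library numbers of the labels run from 1 to 4 in each group. Numbers 1 and 2 carry library identifiers of one series and numbers 3 and 4 of another, called the first and second library series here. Libraries of 1 number tended to lie on the same side of their group means, so each comparison was also fitted with the number as a replicate block, and values within each series are given beside the pooled ones. For IMQ against Sham this tendency was seen between the series and hardly within them. Series and group are not confounded, since each group has 2 libraries of each series. Notch2 itself was lower in every N2ΔMy library, at 7240 to 11518 normalized counts against 12656 to 20005 in wt libraries. Its log2 difference was -0.71 in Ly6Chi cells after Sham treatment, -0.87 in Ly6Chi cells after IMQ and -0.72 in Ly6Clo cells. The transcript was thus reduced and not absent.

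In wt Ly6Chi cells, the class II genes were lower after IMQ than after Sham treatment. The normalized counts of H2-Aa were 762 to 1475 after Sham treatment and 208, 190, 406 and 149 after IMQ, in the order of the library numbers, as in every list of 4 values. H2-Ab1, the I-A beta chain, went from 2047, 2563, 1289 and 1559 to 306, 351, 571 and 230. For both chains the lowest Sham library exceeded the highest IMQ library. On the log2(value + 1) scale used for all fits, H2-Aa fell by 2.29 (SE 0.30, adjusted p = 7.3e-04 by limma) and H2-Ab1 fell by 2.38 (SE 0.27, adjusted p = 3.5e-04).

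H2-Eb1 and Cd74 followed. H2-Eb1 was at 638, 679, 280 and 381 after Sham treatment and at 95, 64, 265 and 62 after IMQ, a log2 difference of -2.20 (SE 0.45, adjusted p = 0.00742 by limma). Cd74, the invariant chain, was at 9267, 11462, 5042 and 6371 and then at 2454, 2672, 3047 and 1854. It fell by 1.63 on the log2 scale (SE 0.24, adjusted p = 0.00119 by limma), a smaller difference than those of the 3 chains. Library number 3 was the highest IMQ library and the lowest Sham library for both genes.

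The transactivator moved in the same direction. Ciita was at 803 to 1441 after Sham treatment and at 429, 465, 563 and 217 after IMQ, a log2 difference of -1.46 (SE 0.28, adjusted p = 0.00601 by limma). H2-DMb1 went from 615, 842, 455 and 547 to 328, 359, 315 and 271, a log2 difference of -0.92 (SE 0.18, adjusted p = 0.00583 by limma). H2-DMa was at 1300, 1322, 1344 and 1912 after Sham treatment and at 646, 630, 1196 and 1248 after IMQ. Its groups did not overlap, but the log2 difference of -0.71 missed the threshold (adjusted p = 0.0672 by limma) and passed it with the replicate block (adjusted p = 0.0018 by limma). H2-DMb2 was at 63 to 87 and at 25 to 61, with a log2 difference of -0.77 (adjusted p = 0.112 by limma).

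In all, 6 of the 8 genes were called lower in wt Ly6Chi cells and 0 higher, where a call needs an adjusted p up to 0.05 together with a log2 difference of 0.6 or more in size. Of all tested genes, 5.07% were called lower. With the replicate block 7 genes were called lower, against 6.03% of all genes. The libraries of all 8 did not overlap, as was so in this direction for 11.5% of all genes. The median log2 difference of the 8 was -1.55 and that of all genes 0.01. The differences were negative in both library series, for H2-Aa -2.85 in the first and -1.73 in the second, for Cd74 -2.01 and -1.25, and for Ciita -1.64 and -1.29. For H2-Eb1 they were -3.06 and -1.34, and for H2-DMa -1.04 and -0.39. Within the first series 7 genes were called lower, where 4.82% of all genes were, and within the second 4, where 2.85% were. H2-Eb1, Ciita and H2-DMa were not called within the second (adjusted p = 0.2, 0.0742 and 0.208 by limma).

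N2ΔMy Ly6Chi cells showed a fall of the same genes. H2-Aa was at 1673, 1721, 1132 and 1058 after Sham treatment and at 114, 196, 409 and 275 after IMQ, and fell by 2.60 on the log2 scale (SE 0.34, adjusted p = 9.3e-04 by limma). H2-Ab1 went from 2691, 2838, 1910 and 1540 to 235, 319, 604 and 378, and fell by 2.59 (SE 0.28, adjusted p = 3.3e-04 by limma). H2-Eb1 went from 819, 864, 569 and 417 to 57, 94, 147 and 89, and fell by 2.79 (SE 0.31, adjusted p = 3.3e-04 by limma). No library of 1 treatment overlapped one of the other for these 3 chains.

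Cd74 was at 11733, 13015, 7982 and 7535 after Sham treatment and at 2319, 2697, 3934 and 2685 after IMQ, and fell by 1.78 (SE 0.21, adjusted p = 4.6e-04 by limma). Ciita went from 1554, 1103, 1174 and 941 to 343, 393, 411 and 283, and fell by 1.73 (SE 0.17, adjusted p = 2.0e-04 by limma). H2-DMb1 went from 681, 847, 473 and 590 to 348, 304, 363 and 297, and fell by 0.95 (SE 0.17, adjusted p = 0.00469 by limma). For these genes too the treatments did not overlap. H2-DMa was at 1335, 1338, 2051 and 2337 and then at 769, 768, 1534 and 1681, with a log2 difference of -0.62 (adjusted p = 0.209 by limma, and 0.00171 with the replicate block). All 4 numbers were lower after IMQ for this gene, although the groups overlapped. H2-DMb2 was at 40, 72, 96 and 39 and then at 41, 23, 34 and 38 (adjusted p = 0.192 by limma).

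Here too 6 of the 8 genes were called lower and 0 higher, where 4.55% of all genes were called lower, and with the replicate block 7 genes, where 5.13% were. The libraries of 6 did not overlap in this direction, as was so for 9.64% of all genes. The median log2 difference of the 8 was -1.75, against 0.01 for all genes. H2-Eb1 differed by -3.50 within the first series and by -2.08 within the second, and Ciita by -1.83 and -1.62. Within the first series 7 genes were called lower, where 4.58% of all genes were, and within the second 5, where 3.31% were. The difference between the genotypes in the response to IMQ was tested with an interaction term. No class II gene passed it by limma, no gene of the table did (0%), and none of the 8 had an unadjusted p under 0.05. The interaction was -0.31 (SE 0.51) for H2-Aa, -0.15 (SE 0.35) for Cd74 and -0.26 (SE 0.36) for Ciita.

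Marker genes of conventional dendritic cells, which carry much class II, were also lower in Ly6Chi cells after IMQ. Of 12 listed markers 8 were tested, and 7 were called lower in each genotype. Cd209a, a lectin of monocyte-derived dendritic cells, was at 292 to 642 normalized counts in wt cells after Sham treatment and at 1, 3, 44 and 1 after IMQ, and Flt3, a growth factor receptor of dendritic cell precursors, at 476 to 661 and at 243 to 405. Their summed level was 2928 to 4237 in the Sham libraries of both genotypes and 1092 to 1638 in the IMQ libraries. Xcr1 and Ccr7, which mark a subset and mature dendritic cells, were at 0 to 1 in all Ly6Chi libraries. The summed level of the neutrophil markers was 708 to 1386 after Sham treatment and 3101 to 8578 after IMQ. That of the B cell markers was 2122 to 3899 after Sham treatment and 1270 to 2796 after IMQ, and Ighm of this list was called lower in both genotypes only with the block (-0.62 in wt and -0.71 in N2ΔMy cells, adjusted p = 3.9e-04 and 0.00742 by limma). The part of these cells in the fall was not tested.

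**Figure D2:**
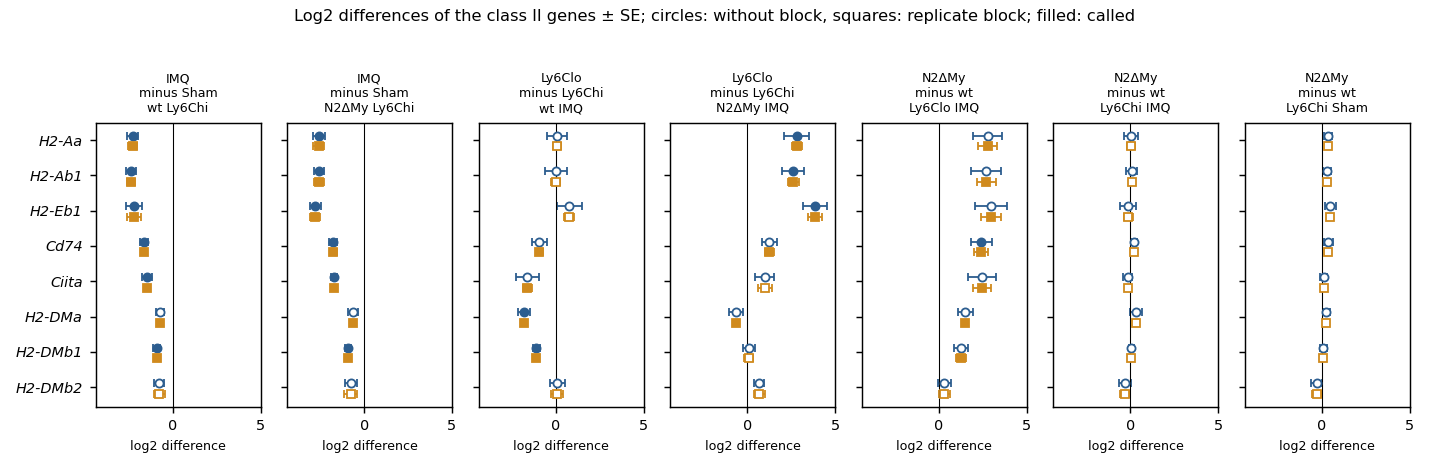
Log2 differences of the 8 class II genes in 7 comparisons, with SE, on the log2(value + 1) scale. Circles are fits without the replicate block, squares fits with it, and filled symbols passed the call. IMQ minus Sham is negative in both genotypes, N2ΔMy minus wt lies near 0 in both Ly6Chi comparisons, and in Ly6Clo cells it is positive with wide errors that the block narrows.

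The comparison of Ly6Clo with Ly6Chi cells after IMQ shared its Ly6Chi libraries with the comparison of IMQ with Sham, and its Ly6Clo libraries with the comparison of the genotypes. In wt mice, H2-DMa and H2-DMb1 were lower in Ly6Clo cells, while the I-A chains were not told apart between the subsets. H2-DMa was at 646, 630, 1196 and 1248 in Ly6Chi and at 131, 221, 413 and 302 in Ly6Clo cells, a log2 difference of -1.84 (SE 0.34, adjusted p = 0.00173 by limma). H2-DMb1 was at 131, 174, 187 and 103 in Ly6Clo cells, a log2 difference of -1.12 (SE 0.20, adjusted p = 0.00124 by limma). H2-DMb2 was at 21 to 77 in Ly6Clo and at 25 to 61 in Ly6Chi cells (0.07, adjusted p = 0.917 by limma). Every Ly6Clo library lay under every Ly6Chi library for H2-DMa and H2-DMb1, and the log2 difference of H2-DMa was -1.90 within the first series and -1.79 within the second.

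The other genes spread widely in wt Ly6Clo cells. H2-Aa was at 213, 273, 736 and 67, H2-Ab1 at 312, 420, 1230 and 84, and H2-Eb1 at 128, 247, 627 and 42. Number 3 was thus the highest and number 4 the lowest for each. The same numbers were the highest and the lowest wt Ly6Chi IMQ library for H2-Aa, H2-Ab1 and H2-Eb1. The log2 difference between the subsets was 0.07 (SE 0.59) for H2-Aa, -0.01 (SE 0.63) for H2-Ab1 and 0.76 (SE 0.72) for H2-Eb1, with adjusted p = 0.939, 0.99 and 0.45 by limma.

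Cd74 was at 1322, 1648, 2679 and 467 and Ciita at 148, 143, 426 and 29 in wt Ly6Clo cells, with log2 differences of -0.94 (adjusted p = 0.106 by limma) and -1.62 (adjusted p = 0.0722 by limma). In each of the 4 pairs of libraries with the same number, both genes were lower in the Ly6Clo library. With the replicate block both were called, at adjusted p = 0.00114 for Cd74 and 2.3e-04 for Ciita by limma. So 2 of the 8 genes were called lower and 0 higher, where 12.7% of all genes were called lower, and 4 with the block, where 15% were. The libraries of 2 genes did not overlap in this direction, as was so for 17.1% of all genes. Without wt Ly6Clo library 3, the count of 2 also became 4, a fit for which the share of all genes is not given here. Of the 8 tested dendritic cell markers, 2 were called lower in wt Ly6Clo than in wt Ly6Chi cells (log2 differences of -3.79 for Clec10a and -1.84 for Flt3, adjusted p = 8.4e-05 and 0.0216 by limma) and 2 higher (2.51 for Zbtb46 and 1.06 for Dpp4, adjusted p = 0.00704 and 7.9e-05). Of the 8 tested macrophage markers, 2 were called lower and 2 higher. Their part in the class II values was not tested.

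In N2ΔMy mice after IMQ, the classical chains were higher in Ly6Clo than in Ly6Chi cells. H2-Eb1 was at 57, 94, 147 and 89 in Ly6Chi and at 415, 533, 5081 and 2778 in Ly6Clo cells, and rose by 3.85 on the log2 scale (SE 0.69, adjusted p = 0.0021 by limma). H2-Aa was at 517, 642, 6134 and 3083 in Ly6Clo cells and H2-Ab1 at 779, 969, 8158 and 3913. They rose by 2.82 (SE 0.71, adjusted p = 0.0138 by limma) and by 2.61 (SE 0.64, adjusted p = 0.0122 by limma). Every Ly6Clo library exceeded every Ly6Chi library for these genes, and the libraries of the second series exceeded those of the first among the Ly6Clo cells.

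The difference was present in both series but unequal in size. H2-Aa differed by 1.94 within the first series and by 3.69 within the second, H2-Ab1 by 1.66 and 3.56, and H2-Eb1 by 2.67 and 5.03. Cd74 was at 3446, 3749, 18001 and 9453 in Ly6Clo cells, a log2 difference of 1.26 (SE 0.44) that missed the threshold (adjusted p = 0.0599 by limma) and passed it with the replicate block (adjusted p = 0.00276 by limma). Ciita, at 257, 388, 2197 and 1104, differed by -0.22 within the first series and by 2.19 within the second, so its 2 series pointed in opposite directions. Over all libraries its log2 difference was 0.99 (adjusted p = 0.211 by limma).

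The values of the 3 DM genes pointed in different directions between the subsets, and whether they differed from the classical chains was not tested. H2-DMa was at 423, 449, 1359 and 940 in N2ΔMy Ly6Clo and at 769, 768, 1534 and 1681 in Ly6Chi cells, lower in the Ly6Clo library of each of the 4 numbers. The log2 difference of -0.66 was called with the replicate block (adjusted p = 0.248 by limma without and 0.00186 with it). H2-DMb1 was at 221, 202, 771 and 416 in Ly6Clo cells and differed by -0.62 within the first series, where it was called (adjusted p = 0.042 by limma), and by 0.78 within the second. H2-DMb2 was at 48, 59, 52 and 57 against 41, 23, 34 and 38, without overlap, but its log2 difference of 0.68 was not called (adjusted p = 0.102 by limma).

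Of the 8 genes, 3 were called higher and 0 lower, where 9.01% of all genes were called higher. With the replicate block 4 were called higher, where 10.3% of all genes were, and 1 lower, where 10.2% were. The libraries of 4 genes did not overlap with Ly6Clo cells higher, as was so for 14.8% of all genes. Without Ly6Clo libraries 3 and 4, a fit added after the values were seen, H2-Ab1 and H2-Eb1 were still called higher, at log2 differences of 1.26 and 2.35, and H2-Aa was not (1.36, adjusted p = 0.054 by limma). In the same fit H2-DMa and H2-DMb1 were called lower, at -1.35 and -0.63. Markers of other cells were also higher in N2ΔMy Ly6Clo than in N2ΔMy Ly6Chi cells. By limma 3 of the 8 tested dendritic cell markers were called higher (Zbtb46 by 3.72, Clec9a by 2.92 and Dpp4 by 1.11, with adjusted p = 0.0032, 0.0189 and 0.00344, the first and last of them also higher in wt Ly6Clo cells), 7 of the 8 tested macrophage markers, and Siglech of plasmacytoid dendritic cells (3.17, adjusted p = 0.0393). Siglech passed the filter on low values only through N2ΔMy Ly6Clo library 3, so it was tested only because of the group in which it was called. The part of these markers in the difference was not tested.

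The direct comparison of the genotypes in Ly6Clo cells after IMQ gave higher means in N2ΔMy cells for all 8 genes. For H2-Aa the mean normalized count was 2594 ± 2639 (SD, n = 4) in N2ΔMy and 322.2 ± 289.1 (SD, n = 4) in wt cells, and for Cd74 it was 8662 ± 6811 and 1529 ± 914.2. The SD of H2-Aa in N2ΔMy cells was as large as its mean. Cd74 rose by 2.41 on the log2 scale (SE 0.59, adjusted p = 0.0373 by limma), and its libraries did not overlap. The log2 difference was 2.77 (SE 0.85) for H2-Aa, 2.69 (SE 0.86) for H2-Ab1, 2.96 (SE 0.91) for H2-Eb1 and 2.45 (SE 0.81) for Ciita, with adjusted p from 0.0899 to 0.114 by limma, and these were not called.

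The DM genes had smaller differences with smaller errors. H2-DMa differed by 1.51 (SE 0.42, adjusted p = 0.0624 by limma) and H2-DMb1 by 1.25 (SE 0.39, adjusted p = 0.0952 by limma), and the libraries of both did not overlap between the genotypes. H2-DMb2 was at 48 to 59 in N2ΔMy and at 21 to 77 in wt cells, a log2 difference of 0.31 (adjusted p = 0.735 by limma). With the replicate block, 7 genes were called higher, all but H2-DMb2. Their adjusted p with the block was 3.7e-05 for H2-DMa, 0.00186 for Cd74 and between 0.00562 and 0.0105 for the other 5 by limma.

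Thus 1 of the 8 genes was called higher without the block, where 3.12% of all genes were, and 7 with it, where 4.92% of all genes were. The libraries of 3 genes did not overlap in this direction, as was so for 6.62% of all genes. The median log2 difference was 2.43 for the 8 genes and 0.00 for all genes, and 7 of the 8 genes had an unadjusted p under 0.05 without the block, as did 2192 of the 11230 genes. Within the first library series 5 of the genes were called, where 3.31% of all genes were called higher, and within the second 3, where 1.18% were.

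**Figure D3:**
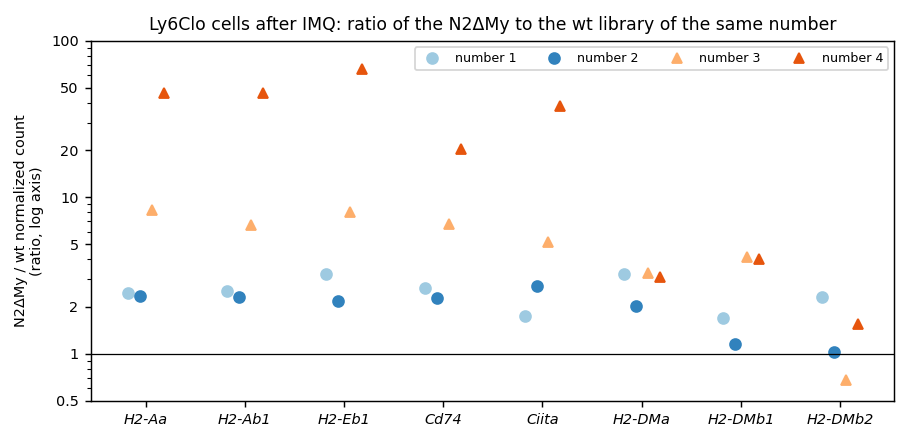
Ratio of the normalized count in the N2ΔMy Ly6Clo IMQ library to that in the wt library of the same number (log axis), for the 8 class II genes. The ratio lies above 1 for all 4 numbers in every gene but H2-DMb2, and for number 4 it reaches 66.1 for H2-Eb1.

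Within pairs of the same number, the ratio of N2ΔMy to wt was above 1 in 4 of 4 pairs for 7 genes. For H2-Aa it was 2.43, 2.35, 8.33 and 46, for Cd74 2.61, 2.27, 6.72 and 20.2, and for Ciita 1.74, 2.71, 5.16 and 38.1. The first 2 pairs were close to each other and the last 2 were not. Number 4 combined the lowest wt library with a high N2ΔMy library. For H2-DMa, the chain of DM, the ratios 3.23, 2.03, 3.29 and 3.11 were alike in both series.

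The log2 difference between the genotypes for H2-Aa was 1.25 in the first series and 4.28 in the second. It was 1.28 and 3.54 for Cd74 and 1.35 and 1.68 for H2-DMa. Whether it differed between the series was tested with an interaction term added after the values were seen. No class II gene passed (adjusted p = 0.995 by limma for each), while 5 of the 8 had an unadjusted p under 0.05, as did 496 of the 11230 genes. It was 0.00782 for H2-DMb1, 0.0192 for H2-Aa, 0.0196 for Cd74, 0.0299 for H2-Eb1 and 0.0397 for H2-Ab1, against 0.402 for H2-DMa. Without N2ΔMy Ly6Clo libraries 3 and 4, 0 of the 8 genes were called by limma, where 579 of the 11230 genes were. The log2 differences were then 1.31 for H2-Aa, 1.48 for Cd74 and 0.83 for H2-DMa. Without wt Ly6Clo libraries 3 and 4, the call of H2-DMa was gained (2.04, adjusted p = 0.0403 by limma) and that of Cd74 lost (2.21, adjusted p = 0.0735), where 502 of all genes were called. Without wt library 3 alone, 5 genes were called, and without any 1 of wt libraries 1, 2 or 4 or N2ΔMy libraries 3 or 4, 0 were. The share of all genes called without 1 library is not given here, so these counts cannot be set against it.

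In Ly6Chi cells the genotypes were not told apart. After IMQ, the log2 difference between N2ΔMy and wt was 0.02 (SE 0.40) for H2-Aa, 0.21 (SE 0.18) for Cd74 and -0.16 (SE 0.27) for Ciita. After Sham treatment it was 0.33 (SE 0.24) for H2-Aa, 0.36 (SE 0.26) for Cd74 and 0.10 (SE 0.21) for Ciita. None of the 8 genes was called by limma in either comparison, with or without the block, and none had an unadjusted p under 0.05 without the block. Few genes of the table were called either, 0.0267% after IMQ and 0.0178% after Sham treatment. With the block these shares were 0.481% and 0.0267%. After Sham treatment, H2-Aa, H2-Eb1, Cd74, H2-DMa and H2-DMb1 were higher in the N2ΔMy library of all 4 numbers, although their groups overlapped. H2-DMa was so after IMQ too, with differences of 0.33 there (adjusted p = 0.931 by limma, and 0.0521 with the block) and of 0.24 after Sham treatment (adjusted p = 0.951 by limma, and 0.37 with the block).

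Whether the genotype difference was larger in Ly6Clo than in Ly6Chi cells after IMQ was tested with an interaction term over 16 libraries. Without the block, 0 of the 8 genes were called by limma, where 0.971% of all genes were called higher, and 6 of the 8 had an unadjusted p under 0.05, as did 936 of the 11230 genes. The interaction was 2.75 for H2-Aa, 3.08 for H2-Eb1, 2.20 for Cd74 and 1.18 for H2-DMa, with SE from 0.58 for H2-DMa to 1.13 for H2-Eb1. With the replicate block these 4 genes were called, at adjusted p = 0.0425, 0.0347, 0.0239 and 0.00202 by limma, where 2.15% of all genes were called higher. H2-Ab1 (2.62, adjusted p = 0.0542 by limma with the block), Ciita (2.61, adjusted p = 0.062) and H2-DMb1 (1.21, adjusted p = 0.118) were not.

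Of the markers of other cells, the summed level of those of dendritic cells was higher in N2ΔMy than in wt Ly6Clo cells for numbers 3 and 4 and lower for numbers 1 and 2. The sum over 12 markers was 1259, 1079, 3903 and 2087 in N2ΔMy and 1388, 1235, 1756 and 1121 in wt libraries, so the libraries with the most class II transcripts also had the most of these. Zbtb46, a transcription factor of conventional dendritic cells, was at 28, 53, 460 and 165 in N2ΔMy and at 33, 55, 114 and 37 in wt Ly6Clo libraries. Flt3 was at 251, 135, 850 and 381 and at 65, 71, 325 and 35. Clec10a, a lectin of dendritic cells and macrophages, was the only tested marker of the 8 called higher without the block (3.33, adjusted p = 0.00298 by limma), and 5 were called with it. Ccr7 was at 0 in every Ly6Clo library, Mgl2 at 0, 0, 7 and 6 and Xcr1 at 0, 0, 13 and 6 in N2ΔMy Ly6Clo libraries.

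The macrophage and Ly6Chi monocyte marker lists divided differently over the libraries, while the B cell and plasmacytoid dendritic cell lists were highest in N2ΔMy libraries 3 and 4 among the N2ΔMy Ly6Clo libraries, as the dendritic cell list was. The summed level of 9 macrophage markers was 11371 to 14988 in N2ΔMy and 4695 to 6718 in wt Ly6Clo libraries, and 7 of the 8 tested were called higher. The summed level of the Ly6Chi monocyte markers was 8205 to 12522 against 1829 to 3777. That of the 8 Ly6Clo monocyte markers was 83157 to 100050 in N2ΔMy against 148423 to 170756 in wt Ly6Clo libraries, and 5 of them were called lower by limma, 7 with the block. Neither the macrophage nor the Ly6Chi sum was higher in libraries 3 and 4 than in 1 and 2 of N2ΔMy Ly6Clo cells. Of the B cell markers, Ms4a1 was at 0 to 3 in the Ly6Clo libraries and Cd79a at 1 to 14, while Ighm was at 719 to 1881 in N2ΔMy and at 787 to 1955 in wt libraries. Cd22, a receptor of B cells on the same list, was called higher in N2ΔMy Ly6Clo than in N2ΔMy Ly6Chi cells (1.59, adjusted p = 0.025 by limma), and than in wt Ly6Clo cells only with the block (1.06, adjusted p = 0.284 by limma without and 0.0434 with it). The summed level of the 10 B cell markers was 865, 1230, 2334 and 1720 in N2ΔMy and 930, 1023, 2116 and 1116 in wt Ly6Clo libraries. Of the plasmacytoid dendritic cell markers, Siglech was at 9, 6, 64 and 39 in N2ΔMy and at 2, 9, 46 and 3 in wt libraries, and the other 4 were at 0 to 11. The T and NK cell markers summed to at most 5. The part of these cells in the class II levels was not tested.

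**Figure D4:**
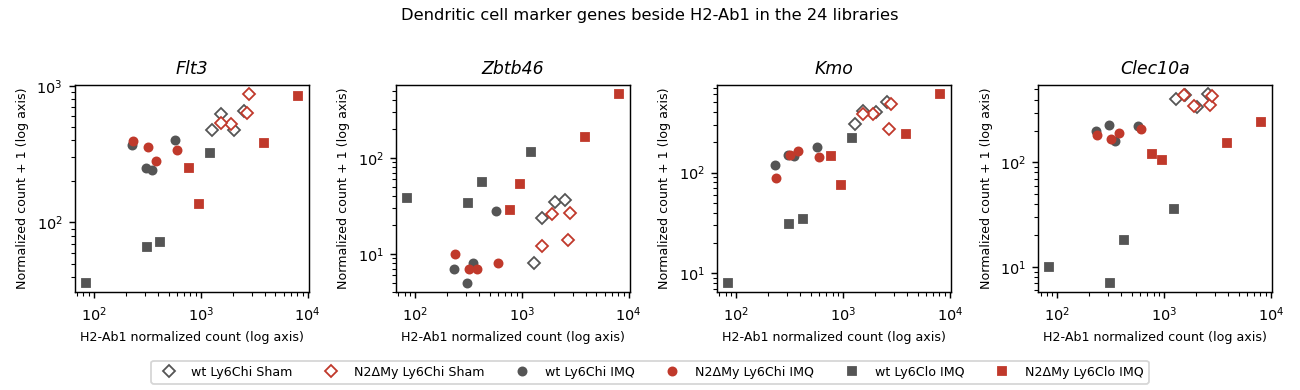
Normalized counts plus 1 of 4 dendritic cell markers against H2-Ab1 in the 24 libraries (both axes log). Diamonds are Ly6Chi Sham, circles Ly6Chi IMQ and squares Ly6Clo IMQ libraries, grey wt and red N2ΔMy. The 2 N2ΔMy Ly6Clo libraries with the most H2-Ab1 (8158 and 3913) are also highest in Zbtb46, at 460 and 165.

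The genes did not keep fixed proportions to each other. The ratio of H2-Aa to H2-Ab1, the chains of 1 molecule, stayed between 0.424 and 0.697 per kilobase in all 24 libraries. The ratio of H2-Eb1 to H2-Ab1 was 0.567 to 0.982 in the 8 Ly6Clo libraries. In the 16 Ly6Chi libraries it was 0.252 to 0.642, and only wt IMQ library 3 reached into the Ly6Clo range.

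Cd74 and Ciita stood higher against H2-Ab1 in the Ly6Chi cells of IMQ-treated mice. The ratio of Cd74 to H2-Ab1 was 4.54 to 5.68 per kilobase after Sham treatment, 6.2 to 11.5 after IMQ in Ly6Chi cells and 2.53 to 6.45 in Ly6Clo cells. For Ciita it was 0.0667 to 0.113 after Sham treatment, 0.117 to 0.251 after IMQ in Ly6Chi cells and 0.0462 to 0.0814 in Ly6Clo cells. In both ratios the Ly6Chi libraries of IMQ-treated mice lay above all Ly6Chi libraries of Sham-treated mice. The ratio of H2-DMa to H2-Ab1 ran from 0.47 to 1.51 in Sham libraries and from 1.79 to 5.41 in Ly6Chi IMQ libraries, and was 0.335 to 3.59 in wt and 0.166 to 0.542 in N2ΔMy Ly6Clo libraries.

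**Figure D5:**
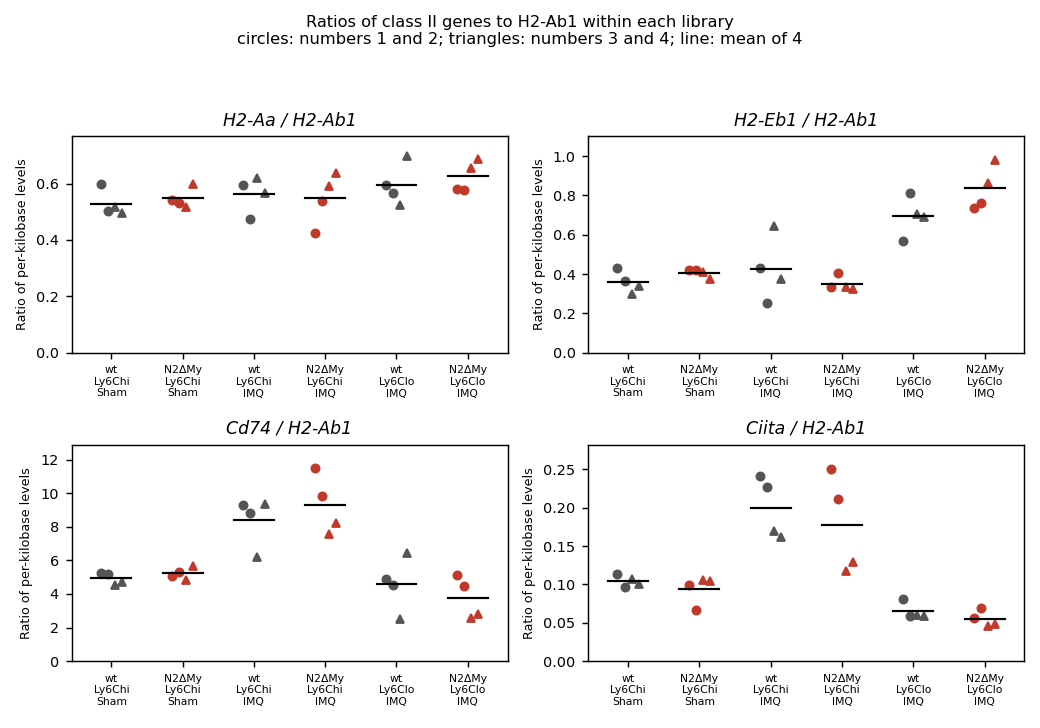
Ratios of per-kilobase levels of H2-Aa, H2-Eb1, Cd74 and Ciita to H2-Ab1 within each library, by group (grey wt, red N2ΔMy, circles numbers 1 and 2, triangles numbers 3 and 4, lines means of 4). The H2-Aa ratio stays between 0.424 and 0.697, the H2-Eb1 ratio is highest in Ly6Clo cells, and the Cd74 and Ciita ratios are highest in Ly6Chi cells after IMQ.

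The other genes of the pathway were read from lists. Of the remaining class II genes, H2-Oa and H2-Ob, which encode the DM inhibitor DO, were tested and H2-Eb2 stayed at 0 to 5. H2-Ob was at 35, 35, 120 and 57 and H2-Oa at 10, 6, 111 and 37 in N2ΔMy Ly6Clo cells. The summed level of the listed genes was at most 51 in any library of the other groups. Both genes thus passed the filter on low values mainly through N2ΔMy Ly6Clo cells. H2-Ob was called higher there than in N2ΔMy Ly6Chi cells after IMQ (2.08, adjusted p = 0.00607 by limma), in the group that let it be tested. In N2ΔMy Ly6Chi cells it was called lower after IMQ than after Sham treatment (-1.39, adjusted p = 0.0143 by limma). In wt Ly6Clo cells H2-Ob was at 2 to 36 and H2-Oa at 1 to 8. Against these, H2-Ob was called higher in N2ΔMy cells only with the block (adjusted p = 0.125 by limma without and 0.0124 with it).

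None of the 7 genes of the complex on the X and Y boxes (Rfx5, Rfxap, Rfxank, Creb1, Nfya, Nfyb, Nfyc) was called by limma in any of the 9 comparisons, with 6 unadjusted p under 0.05 among their tests. Their summed level was 3376 to 4302 in all 24 libraries. Of 13 genes on the way from interferon gamma to Ciita and of its other regulators, 4 were called lower after IMQ in both genotypes. Among them were Socs1, an inhibitor of cytokine signalling, Prdm1, a repressor of Ciita in plasma cells, and Irf4, a transcription factor of B and dendritic cells. In wt Ly6Chi cells, Irf4 fell by 1.22 on the log2 scale (SE 0.09, adjusted p = 4.5e-05 by limma) and Prdm1 fell by 1.38 (SE 0.22, adjusted p = 0.002 by limma).

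Irf4 was the only gene of this list called between the genotypes in Ly6Clo cells. It was at 793, 766, 1399 and 1113 in N2ΔMy and at 143, 225, 408 and 242 in wt cells, a log2 difference of 2.05 (SE 0.30, adjusted p = 0.00245 by limma), and its genotype by subset interaction was called without the block (1.78, adjusted p = 0.0191 by limma). Unlike the classical chains, Irf4 did not overlap between the genotypes.

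Some endosomal enzymes rose in Ly6Chi cells after IMQ. Of 9 tested, Ctsl, Ctsd and Ifi30, 2 cathepsins and a thiol reductase, were called higher after IMQ in both genotypes and 0 lower. Ctsd was at 735, 581, 658 and 732 in wt cells after Sham treatment and at 1366, 1562, 1194 and 1818 after IMQ, a log2 difference of 1.12 (SE 0.13, adjusted p = 4.3e-04 by limma). Ctss, the cathepsin that trims the invariant chain, was not called in any comparison and was at 14467 to 27610 in the 24 libraries. In Ly6Clo cells, Ctsl and Ctsd were called higher in N2ΔMy than in wt cells, at 1.26 (adjusted p = 0.0432 by limma) and 0.71 (adjusted p = 0.0147).

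Genes that act on class II at the cell surface were few. Cd83, which slows the removal of class II from the surface, was at 60, 116, 46 and 52 in wt Ly6Chi cells after Sham treatment and at 1, 3, 8 and 3 after IMQ. It was at 72, 71, 54 and 64 in N2ΔMy and at 19, 10, 21 and 42 in wt Ly6Clo cells (1.62, adjusted p = 0.0381 by limma). March1, a ubiquitin ligase that removes class II from the surface, was at 2326 to 3447 in all libraries, and neither it nor March8 was called in any comparison. Of the ligands that accompany presentation, Cd40 fell after IMQ in both genotypes (-1.10 in wt cells, adjusted p = 0.00117 by limma). Cd40 and Cd80 were higher in N2ΔMy than in wt Ly6Clo cells (2.41 and 2.10, adjusted p = 0.006 and 0.00188 by limma), and both passed the genotype by subset interaction without the block, while Cd86 was not called in any comparison. Of 4 genes for the Cd74 ligand Mif and for proteins that act with Cd74 as its receptor, 3 were tested and only Mif was called, lower in Ly6Clo than in Ly6Chi cells of both genotypes (-1.34 in wt and -0.88 in N2ΔMy cells, adjusted p = 0.00267 and 0.02 by limma) and higher after IMQ in N2ΔMy Ly6Chi cells (0.95, adjusted p = 0.0143).

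The genes most like the class II genes were ranked by their Pearson correlation with the mean centred log2 profile of H2-Aa, H2-Ab1, H2-Eb1 and Cd74. Over the 24 libraries, which fall into the 6 groups and 2 series, the 8 highest among the other genes were Slamf7 (r = 0.904), Srgap3 (0.903), Cd163 (0.876), Nedd4 (0.864), Lrrc16a (0.854), Pid1 (0.853), Tns1 (0.85) and Rgag4 (0.828). Slamf7, a receptor of the SLAM family, had mean normalized counts of 267.5 in wt Ly6Chi cells after Sham treatment, 75.5 after IMQ, and 63.5 and 310.5 in wt and N2ΔMy Ly6Clo cells. Ciita itself had r = 0.87, H2-DMb1 0.741, H2-DMb2 0.567 and H2-DMa 0.484.

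After the mean of each group within each library series was removed, so that only the difference between libraries of a pair was left, the order was another one. The 8 highest were then RP23-466D3.1 (r = 0.929), Luc7l3 (0.928), Col27a1 (0.919), Slfn5 (0.917), Iqgap2 (0.916), Stxbp6 (0.915), St8sia6 (0.912) and Cd7 (0.911), still over 24 libraries. The libraries of a pair mirror each other after this step, so r rests on fewer independent values than libraries. Ciita had r = 0.971 there and H2-DMa 0.519. By rank correlation, only Cd7 of the 8 remained among the 8 highest.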

How the data were processed

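RNA was sequenced from the sorted cells with a stranded total RNA kit as 75 bp single reads. The authors trimmed the reads (Trim Galore 0.4.4), aligned them with STAR 2.5.3a to GRCm38.p6 with GENCODE M17 by way of nf-core/rnaseq, and took the counts through DESeq2 for normalization. The counting tool and its strand setting are not given in the sources used here. The deposited values are scores, namely DESeq2-normalized counts rounded to whole numbers, which are not raw counts, so no count model was run. Columns of the authors' own comparison (base mean, fold change, its error, test statistic and p-values) were not used.

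Depth is no longer in the values, whose sum per library was 13273508 to 14651770. Reads per library inferred from the gaps between rounded values were 9523728 to 19754712, fewer in the second series (median 11944096 against 15589914), so its low values are less precise. The SD over the 4 libraries of a group gives the precision.

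Groups came from the genotype, subset and treatment in the labels. The controls are Sham-treated in the labels and untreated in the methods on RNA isolation. The study calls its n biological replicates in general, but no source used here ties a library to a mouse, and p-values measure the spread between these libraries. Values were compared as log2(value + 1) with limma 3.58.1 in R 4.3.3 (lmFit, eBayes with trend), using only libraries from the compared groups, across the 11230 genes that reached 50 in any library. Calls needed a Benjamini-Hochberg adjusted p up to 0.05 over all these genes together with a log2 difference of 0.6 or more in size. The F-test used an adjusted p up to 0.01. The fits were tested on simulated data. Same-numbered libraries of compared groups deviated from their group means together in all 28 pairs (r = 0.160 to 0.619 across genes), so the number was fitted as a block beside each comparison. Within a series r ran from -0.116 to 0.263, with a mean of 0.132. For IMQ against Sham it was 0.001 and 0.021 in wt and 0.094 and -0.116 in N2ΔMy cells, in the first and second series. Little pairing beyond the series was thus seen for IMQ against Sham. Alternatives covered the block, the series, filters, pseudocount, scaling, trend and left-out libraries.

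All 8 genes were named in the comparisons. Of other lists, at most 4 called genes a list and comparison were named, beside genes chosen after their values were seen (H2-Oa, H2-Eb2, Ctss, March1, March8, Cd86 and single markers). The members and lists were chosen with earlier results of these data known. Python 3.11.15 was used for tables, with pandas 2.3.3, numpy 2.4.6 and scipy 1.17.1, and matplotlib 3.10.9 for figures.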

Additional observations from a re-analysis of the deposited data

Results flagged for a closer look

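In 2 of the 48 sets of 4 libraries (8 genes in 6 groups), the gap of an extreme library to the nearest other, divided by the range of the 4, exceeded Dixon's 95% limit for 4 values, which chance passes in about 1 of 20 sets. H2-Eb1 was at 265 normalized counts in wt Ly6Chi IMQ library 3 against 62 to 95 in the other 3 (gap 0.837 of the range). H2-DMa was at 1912 in wt Ly6Chi Sham library 4 against 1300 to 1344 in the others (0.928).

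The difference between the genotypes differed between Ly6Clo and Ly6Chi cells for 4 genes, by the interaction term of limma with the replicate block: H2-Aa by 2.75 (adjusted p = 0.0425), H2-Eb1 by 3.08 (adjusted p = 0.0347), Cd74 by 2.20 (adjusted p = 0.0239) and H2-DMa by 1.18 (adjusted p = 0.00202), on the log2 scale. N2ΔMy cells were higher in the Ly6Clo libraries in 4 of 4 pairs for each. Without the block none of the 4 passed by limma (adjusted p = 0.391, 0.351, 0.204 and 0.646).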

How the results depend on the processing

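The fall of the class II genes after IMQ in Ly6Chi cells kept 6 or 7 calls in wt and 6 in N2ΔMy cells when any 1 library was left out. In wt cells it had 3 calls with no filter on low values, where more genes were tested and the calls over all genes went from 1066 to 795. Counts over all genes are not given for fits without 1 library. Counts in Ly6Clo cells depended on the choices.

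For Ly6Clo against Ly6Chi in wt cells, the 2 calls became 4 with the replicate block and without wt Ly6Clo libraries 3 and 4, 5 within the first series (4 lower and H2-Eb1 higher, 1.18, adjusted p = 0.0491 by limma) and 1 within the second, and 2 to 4 when 1 library was left out. Over all genes, the 2760 calls of this comparison became 3199 with the block and 2703 without wt Ly6Clo libraries 3 and 4. They became 2591 within the first series (11.5% of all genes lower and 11.6% higher) and 2043 within the second (9.11% lower). For N2ΔMy cells, the 3 calls became 5 with the replicate block, with the series as a covariate (4 higher and 1 lower in both), within the first series (3 higher and 2 lower) and within the second (5 higher), 0 with no filter, and 3 to 5 when 1 library was left out. Over all genes, the 1953 calls of this comparison became 2302 with the block, 2360 with the covariate and 1512 with no filter. They became 1861 within the first series (8.93% of all genes higher and 7.64% lower) and 2481 within the second (11.7% higher). In N2ΔMy cells H2-DMb1 was reversed within the first series (-0.62) and without Ly6Clo libraries 3 and 4 (-0.63).

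For N2ΔMy against wt in Ly6Clo cells, the 1 call became 7 with the replicate block, with the series as a covariate and with all 24 libraries in 1 model, 5 within the first series, 3 within the second, 0 with no filter, without the variance trend and without N2ΔMy libraries 3 and 4, and 0 to 5 when 1 library was left out. Over all genes, the 537 calls of this comparison became 939 with the block, 830 with the covariate, 741 in 1 model, 620 and 180 within the first and second series, 215 with no filter, 439 without the trend and 579 without N2ΔMy libraries 3 and 4. The genotype by subset interaction had 0 calls, 4 with the replicate block, 1 with the series as a covariate and 3 within the first series. Over all genes the interaction had 210 calls with the covariate and 134 within the first series. The block changed no other count of class II genes by over 1.5 times, but moved the calls over all genes from 116 to 271 in this interaction and from 3 to 54 for N2ΔMy against wt in Ly6Chi cells after IMQ. The 3 fits that leave out libraries 3 and 4 or test the series were chosen after seeing the data. The cause of these changes was not tested.

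Of 1544 recomputed log2 differences, 1391 kept their direction and side of the threshold, 69 gained and 21 lost a call in the same direction, and 61 changed sign without passing it either time. By rank correlation, 6 of the 8 genes most like the class II genes over the libraries remained among the 8 highest, and 1 of the 8 after group and series means were removed. Low values, as of H2-DMb2, H2-Oa and H2-Ob, are least certain in the shallower second series.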
